A study of Mus musculus with 4 samples.

Results

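The genes of the tumour necrosis factor (TNF) superfamily, their receptors and the TRAF adaptors were described in bone marrow leukaemia cells with and without Anp32b. Members were taken by gene symbol: symbols starting with Tnfsf or Tnfrsf, Traf1 to Traf7, and Tnf, Lta, Ltb, Ltbr, Cd27 and Cd40 by name. This gave 44 of the 16613 listed symbols: 15 ligand genes, 22 receptor genes and 7 TRAF genes. Cd70 and Cd40lg, also part of the rule, matched none of the listed symbols and so were not analysed here. RNA-seq was made from GFP+ bone marrow cells of mouse recipients of B220+ bone marrow cells (B220 is a surface marker of B lineage cells) that had been transduced with N-myc. Their cell type is labelled as N-myc-induced B-ALL, a leukaemia of B-cell precursors, and their strain as C57BL/6. The compared groups were Anp32b+/+ (wild type, 2 libraries) and Anp32b-/- (knockout, 2 libraries). Both groups carry the introduced N-myc, and the labels give no age, no treatment and no statement on separate animals or pooling. The p-values therefore measure only the spread between these libraries, which may be technical.

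TNF superfamily ligands are mostly trimeric membrane or secreted proteins that bind receptors with cysteine-rich extracellular domains. The receptors recruit TRAF adaptors or death-domain proteins, and the main outputs are NF-kB and MAP kinase signalling or cell death. In the B lineage, BAFF receptor signalling keeps maturing B cells alive, lymphotoxin from B cells shapes lymphoid tissue, and CD40 receives help from T cells. The RANK ligand and its receptor, best known from bone resorption, also take part in lymphoid development.

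The libraries held 19581575 to 19758671 estimated reads. Anp32b itself was at 774 and 853 CPM (depth-scaled read counts with TMM factors applied) in wild type and at 74.4 and 70.6 CPM in knockout. The B lineage markers Cd79a and Pax5 were abundant in each library, Cd79a at 1871 to 1929 CPM. Of 14 B lineage markers, 2 were called higher in knockout and 7 lower, and their sum was 5618 to 6087 CPM. Among marker lists of other cells, the summed level of 15 neutrophil genes was 573 and 585 CPM in wild type and 116 and 116 CPM in knockout. That of 13 monocyte and macrophage genes was 99.6 and 94.8 against 46.6 and 47.1 CPM, and that of 9 NK cell genes 7.18 and 8.62 against 2.26 and 2.63 CPM. The sum of 11 T cell genes changed less, from 34.8 and 39.8 to 33.6 and 34.7 CPM, and Cd3e had at most 0.20 CPM in any library. That sum joins opposite changes. Of its 6 tested genes, 2 were called lower, Cd4 (log2 fold change -1.61) and Lck (-0.39), and 1 higher, Zap70 (0.53). The sum of 9 dendritic cell genes was 89.7 and 94.45 CPM in wild type against 69.55 and 74.35 CPM in knockout. That of 6 plasma cell genes was 1021 and 1021 against 896 and 913 CPM. For 8 erythroid genes the sum was 214 and 233 against 240 and 245 CPM. For 10 stromal, osteoblast and endothelial genes it was 69.3 and 69.0 against 63.9 and 62.0 CPM. In none of these lists was a gene at 0 in all libraries. In such bulk samples, fewer cells of a type and less RNA per cell cannot be told apart.

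Of the tested genes, 5 of 9 ligand genes fell in knockout and none rose, 3 of 16 receptor genes rose and 6 fell, and 2 of 7 TRAF genes rose and none fell. Of the 44 genes, 32 passed the filter on low counts and were tested with edgeR's quasi-likelihood test, and a gene was called at a Benjamini-Hochberg adjusted p under 0.05 over all 12123 genes tested. Of the 32, 5 were higher and 11 lower in knockout, and 16 were not called. The background was 23.6% of all tested genes called, 10.9% higher and 12.6% lower, against 15.6% and 34.4% of these 32. The median log2 fold change was -0.30 over the 32 genes and 0.00206 over all tested genes. A called fall of at least 2-fold was seen for 6 of the genes (Tnfsf8, Ltb, Lta, Tnf, Tnfrsf11a and Tnfrsf1a), against 3.9% of all tested genes, and no member had a called rise of that size (background 1.3%). The libraries of the genotypes did not overlap for 25 of the 32 genes, against 60.5% of all tested genes.

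The calls differed in firmness. Those of 8 genes were kept in each alternative that gave them a value: Lta, Ltb, Tnf, Tnfsf8, Tnfrsf11a and Tnfrsf19, all lower, and Tnfrsf13b and Tnfrsf13c, both higher. The other 8 calls were lost in at least 1 alternative, and the alternatives that ended them are named below. With DESeq2, 3 genes were higher and 6 lower, and with no filter on low counts 2 and 7. Leaving out knockout replicate 1 gave 2 higher and 8 lower, knockout replicate 2 gave 3 and 7, and wild-type replicate 2 gave 3 and 12.

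**Figure D1:**
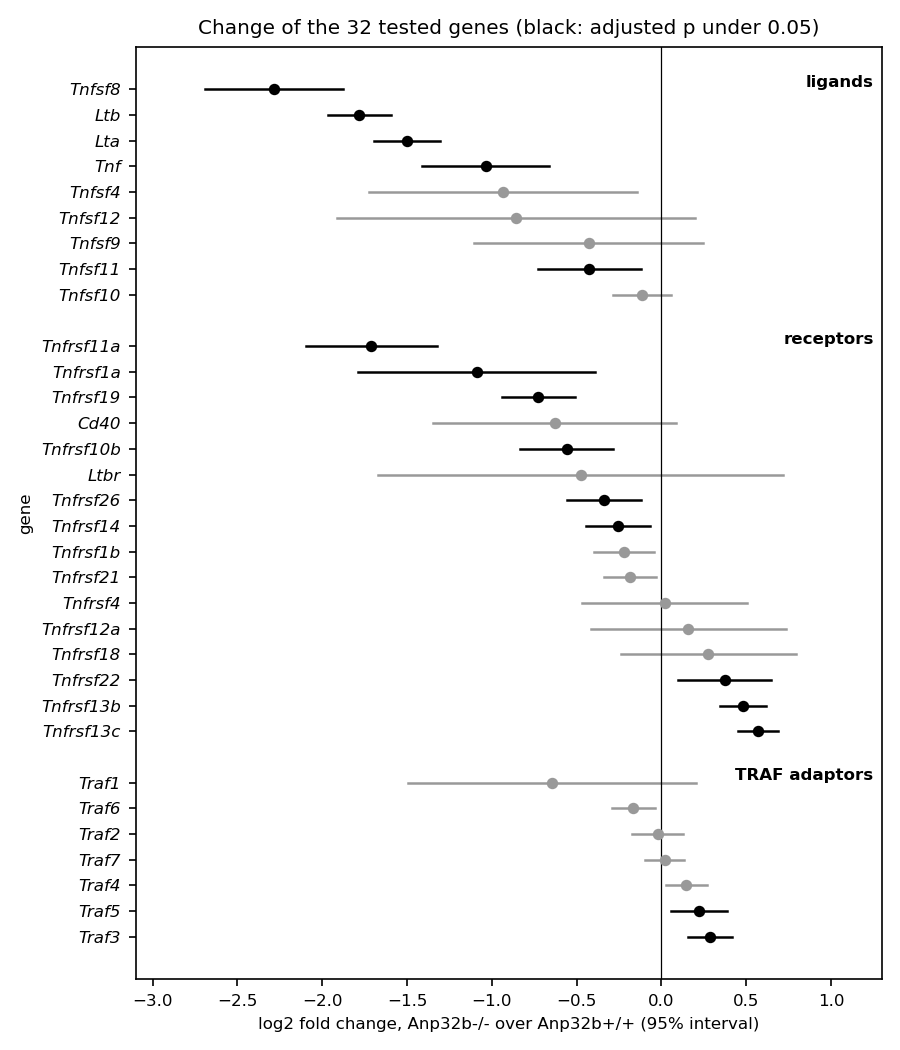
Log2 fold change (x axis, knockout over wild type) with its 95% interval for each of the 32 tested genes (y axis), grouped into ligands, receptors and TRAF adaptors. Black marks an edgeR adjusted p under 0.05. All 9 ligand points lie below 0, from -2.28 to -0.12, the receptor points run from -1.71 to 0.57, and those of the TRAF genes from -0.65 to 0.29.

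Promoter sequences are shown first for 4 genes whose calls were kept in each alternative: Ltb and Tnf, neighbours that fell together, Tnfrsf11a, which also fell, and Tnfrsf13c, which rose. They are the RefSeq bases before the gene start (GRCm38.p6), written 5′ to 3′ along the gene's strand, without bases that lie in another annotated gene or an annotated exon. The Ltb stretch is chr17:35194257-35194438 on the plus strand and the Tnf stretch is chr17:35202008-35202257 on the minus strand. The Tnfrsf11a stretch is chr1:105780473-105780672 on the plus strand and the Tnfrsf13c stretch is chr15:82224381-82224630 on the minus strand. Capitals mark matches to 3 motifs: the NF-kB consensus and GAGGAA (the core of the purine-rich box that PU.1 binds), each on both strands, and TATAAA on the gene's strand. No marked matches overlap each other.
Ltb: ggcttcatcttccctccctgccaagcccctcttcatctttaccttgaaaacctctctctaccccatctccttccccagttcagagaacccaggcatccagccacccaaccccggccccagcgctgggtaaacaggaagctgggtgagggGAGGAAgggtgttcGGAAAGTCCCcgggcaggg
Tnf: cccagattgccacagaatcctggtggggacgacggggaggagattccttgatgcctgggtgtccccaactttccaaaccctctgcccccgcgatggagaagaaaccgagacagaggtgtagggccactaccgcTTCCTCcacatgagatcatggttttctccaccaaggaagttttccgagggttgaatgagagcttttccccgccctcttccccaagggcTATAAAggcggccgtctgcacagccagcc
Tnfrsf11a: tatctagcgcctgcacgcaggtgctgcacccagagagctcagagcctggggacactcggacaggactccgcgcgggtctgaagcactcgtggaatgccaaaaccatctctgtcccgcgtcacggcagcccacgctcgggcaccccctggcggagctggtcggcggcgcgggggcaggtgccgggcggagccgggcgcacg
Tnfrsf13c: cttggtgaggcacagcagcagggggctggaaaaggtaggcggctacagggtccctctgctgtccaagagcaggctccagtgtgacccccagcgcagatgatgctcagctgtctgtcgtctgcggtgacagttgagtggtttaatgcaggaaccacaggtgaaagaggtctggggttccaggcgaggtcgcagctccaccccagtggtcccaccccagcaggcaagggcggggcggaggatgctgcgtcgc

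The Ltb stretch held 1 match to GAGGAA, starting 101 bases before the gene start, and 1 to the NF-kB consensus, starting 87 bases before it. The Tnf stretch held GAGGAA on the opposite strand, 117 bases before the start, and TATAAA 29 bases before it. The stretches of Tnfrsf11a and Tnfrsf13c held none of the 3 letter patterns. Over all 32851 RefSeq windows of 250 bases before a start, 7.25% held the NF-kB consensus, 23.3% GAGGAA and 7.59% TATAAA. Over the 41 windows of 37 member genes in the same table, 12.2% held the NF-kB consensus, 36.6% GAGGAA and 9.76% TATAAA. A match is a description of letters and not evidence of binding.

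Ltb, Tnf and Lta, which lie side by side within 11.1 kb of chromosome 17 (35194507 to 35205578, GRCm38), were all lower in knockout. Ltb encodes lymphotoxin beta, the membrane anchor of the lymphotoxin heterotrimer. It was at 39.4 and 36.5 CPM in the wild-type libraries and at 10.7 and 11.4 CPM in the knockout libraries. The genotypes did not overlap, and the log2 fold change was -1.78, a fall of 3.44-fold (SE 0.09, edgeR adjusted p = 3.69e-09). Lta encodes lymphotoxin alpha, the soluble partner, which also forms a trimer that binds TNF receptors.

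Lta was at 34.6 and 31.2 CPM in wild type and at 11.4 and 11.8 CPM in knockout, 2.83-fold lower (-1.50, SE 0.09, edgeR adjusted p = 2.39e-08). Tnf, the founding cytokine of the family, had fewer reads, and per kb of transcript it was at 3.68 CPM in wild type against 36.8 for Ltb and 23.8 for Lta. It was at 5.77 and 5.65 CPM in wild type against 2.87 and 2.69 CPM in knockout, 2.05-fold lower (-1.04, SE 0.17, edgeR adjusted p = 0.000543). In each of the 3 genes both knockout libraries lay below both wild-type libraries. Neutrophil, monocyte and NK cell marker sums were lower in the same knockout libraries, and their part in these falls was not tested.

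Within 100 kb on both sides, a window chosen after the values of the cluster were seen, 17 genes of the files were found. They include Ltb, Tnf and Lta. Of the tested neighbours, only Lst1 and H2-D1 were called. Over all tested genes 23.6% were called, so uncalled neighbours do not set the cluster apart. The neighbours Bag6 (-0.01), Prrc2a (0.0045), Nfkbil1 (-0.21) and Ddx39b (-0.0062) did not pass the edgeR test (adjusted p = 0.898, 0.972, 0.253 and 0.947). Ddx39b, an RNA helicase gene, averaged 674 CPM in the wild-type pair and 671 CPM in the other. Lst1, a leukocyte-specific transcript gene next to Ltb, had 11 and 14 reads in wild type and 3 and 2 in knockout and was called lower (edgeR adjusted p = 0.0150), having passed the filter only through its wild-type reads. H2-D1, a class I histocompatibility gene, fell by 0.17 on the log2 scale (edgeR adjusted p = 0.0256). The calls of Lst1 and H2-D1 were lost with no filter on low counts (adjusted p = 0.069 and 0.0772), without knockout replicate 1 (0.0784 and 0.248) and without knockout replicate 2 (0.155 and 0.327). That of Lst1 was also lost with DESeq2 (0.173) and without wild-type replicate 2 (0.0676).

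**Figure D2:**
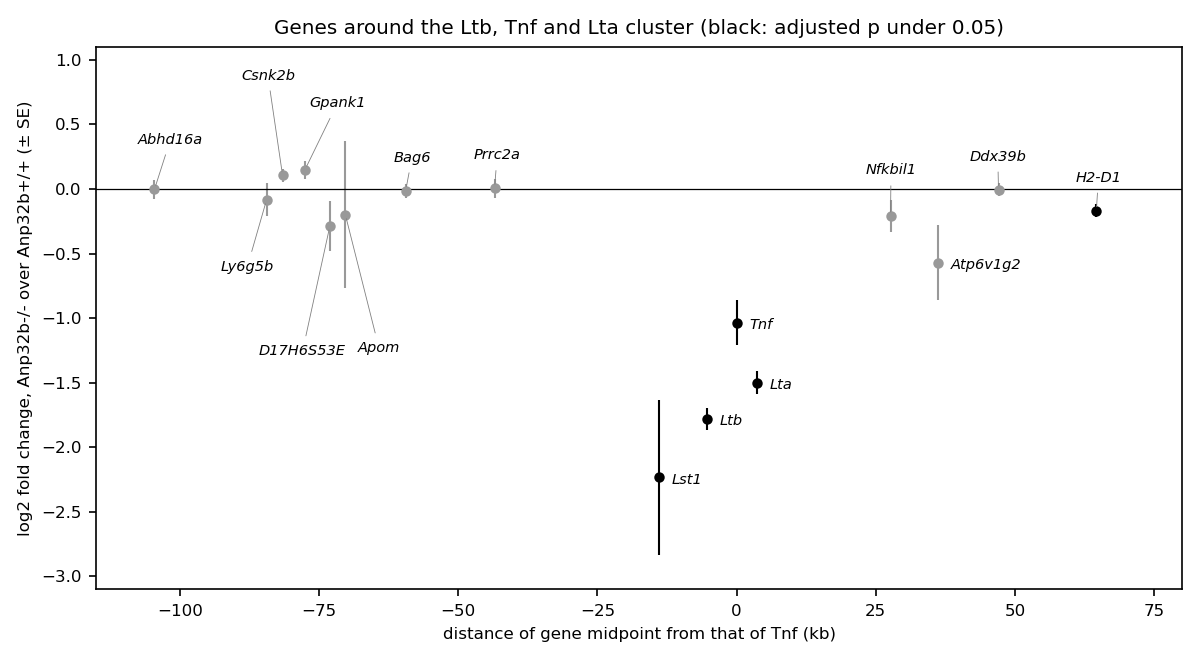
Log2 fold change with SE (y axis) of the tested genes around the Ltb, Tnf and Lta cluster, against the distance of each gene's midpoint from that of Tnf in kb (x axis). Black marks an edgeR adjusted p under 0.05. Ltb, Tnf and Lta sit between -1.78 and -1.04, and Lst1, which had few reads, at -2.23. Atp6v1g2 lies at -0.57 and was not called, while Bag6, Prrc2a and Ddx39b lie near 0.

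Among the other ligands, Tnfsf8 fell most. Tnfsf8 encodes CD30 ligand, a membrane protein of activated lymphocytes and myeloid cells, on chromosome 4 at 63831202 to 63861508. It was at 9.49 and 8.12 CPM in wild type and at 2.05 and 1.55 CPM in knockout. Both knockout libraries were below the wild-type pair, by 4.87-fold on the fitted scale (-2.28, SE 0.19, edgeR adjusted p = 6.36e-07). Tnfrsf8, which encodes its receptor CD30, did not reach the filter and was not tested.

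Tnfrsf8 had 18 and 10 reads in the wild-type libraries and 2 and 0 in the knockout libraries. Wild type over knockout, this is 13.7 (95% exact Clopper-Pearson interval 3.45 to 119, covering counting error only). The gene was singled out after its values were seen.

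Tnfsf11, the RANK ligand gene, was at 9.14 and 11.9 CPM in wild type and at 8.32 and 7.33 CPM in knockout (-0.43, SE 0.14, edgeR adjusted p = 0.0423). Its call was lost with DESeq2 (adjusted p = 0.223), limma-voom (0.0539), no filter (0.212), and without wild-type replicate 2 (0.302), knockout replicate 1 (0.0873) or knockout replicate 2 (0.357). Tnfsf10, which encodes the death ligand TRAIL, was at 27.7 and 26.4 CPM in wild type and at 25.9 and 24.0 CPM in knockout. It was not called (-0.12, 95% interval -0.28 to 0.05, edgeR adjusted p = 0.329). The 3 remaining tested ligand genes had at most 2.61 CPM in any library and were not called. They are Tnfsf4 (OX40 ligand, -0.93), Tnfsf9 (4-1BB ligand, -0.43) and Tnfsf12 (TWEAK, -0.86), with edgeR adjusted p = 0.0835, 0.368 and 0.239. Tnfsf4 was called lower without wild-type replicate 1 (-1.21, adjusted p = 0.0409). Of the 9 tested ligand genes, 5 were lower and none higher (median -0.93), and the 5 include Tnfsf11, whose call was lost as given above. The share called lower was 55.6%, against 12.6% of all tested genes, of which 10.9% were called higher. The neutrophil, monocyte and NK cell marker sums were lower too, and their part was not tested.

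**Figure D3:**
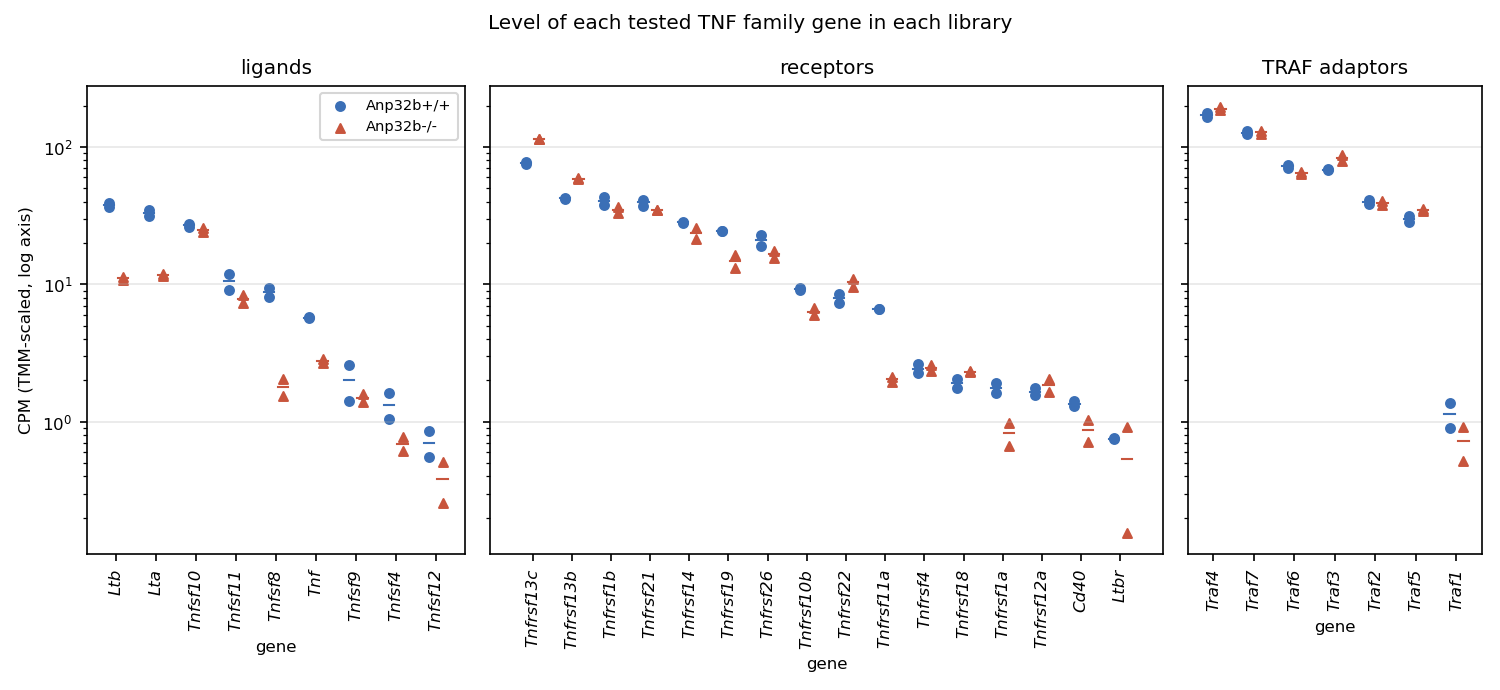
CPM of the 32 tested genes (x axis, by role, ordered by their wild-type mean) in each library on a log axis, with circles for wild type, triangles for knockout and short lines for the mean of the pair. The triangles of Ltb, Lta, Tnfsf8, Tnf and Tnfrsf11a lie below the circles, and those of Tnfrsf13c and Tnfrsf13b above them.

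The receptors for BAFF and APRIL, the ligands that sustain B cells, were higher in knockout where they were tested. Tnfrsf13c encodes the BAFF receptor, which binds BAFF alone, and lies on chromosome 15 at 82221742 to 82224380. It was at 78.4 and 75.1 CPM in wild type and at 114 and 114 CPM in knockout, 1.48-fold higher (0.57, SE 0.05, edgeR adjusted p = 2.79e-06). Tnfrsf13b encodes TACI, which binds both ligands, on chromosome 11 at 61126283 to 61153170. It was at 42.1 and 42.5 CPM in wild type and at 58.0 and 59.9 CPM in knockout, 1.39-fold higher (0.48, SE 0.06, edgeR adjusted p = 5.89e-05).

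For both genes the knockout libraries lay above the wild-type libraries. Tnfrsf17, which encodes BCMA, the plasma cell receptor of the group, had at most 3 reads in any library. The ligand genes Tnfsf13b (BAFF) and Tnfsf13 (APRIL) had at most 10 and 7 reads, and were not tested. The 2 B lineage markers that were higher in the same knockout libraries, named after their values were seen, were Ms4a1, a marker of mature B cells (log2 fold change 1.91, edgeR adjusted p = 1.09e-10), and Cd22 (mean 52.6 against 105 CPM, adjusted p = 1.57e-08). The 7 that were lower were Rag1 (-1.75), Rag2 (-1.26), Ebf1 (-0.52), Vpreb2 (-0.46), Igll1 (-0.37), Vpreb1 (-0.37) and Blnk (-0.28), the first pair encoding the recombinase of antigen receptor genes and Igll1 and the Vpreb genes the surrogate light chain. The part of these markers in the rise of the receptor genes was not tested. Tnfrsf13b overlaps the gene Gm12269 on the other strand, and reads of the pair cannot be told apart where counting ignores strand.

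Tnfrsf11a and Tnfrsf19 fell. Tnfrsf11a encodes RANK, the receptor of the RANK ligand, on chromosome 1 at 105780673 to 105849444. It was at 6.68 and 6.66 CPM in wild type and at 1.95 and 2.12 CPM in knockout, 3.27-fold lower with little spread in either pair (-1.71, SE 0.18, edgeR adjusted p = 7.01e-06). Tnfrsf19 encodes TROY, a receptor best known from the developing nervous system and hair follicle, on chromosome 14 at 60963834 to 61046855. It was at 24.4 and 24.4 CPM in wild type and at 13.2 and 16.3 CPM in knockout, 1.65-fold lower (-0.73, SE 0.10, edgeR adjusted p = 9.24e-05). The knockout pair of Tnfrsf19 lay further apart than its wild-type pair, and both libraries were below it.

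Tnfrsf10b, Tnfrsf1a and Tnfrsf21 encode receptors with a death domain. Tnfrsf10b, which encodes the TRAIL receptor, was at 9.49 and 9.18 CPM in wild type and at 5.95 and 6.71 CPM in knockout (-0.56, SE 0.13, edgeR adjusted p = 0.00560). Its call was lost with DESeq2 (adjusted p = 0.0802) and without knockout replicate 1 (0.081). Tnfrsf1a, which encodes TNF receptor 1, the widely expressed receptor that starts the death-domain complex, had few reads. It was at 1.91 and 1.61 CPM in wild type and at 0.67 and 0.98 CPM in knockout (-1.09, SE 0.33, edgeR adjusted p = 0.0255).

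The call of Tnfrsf1a was lost with DESeq2 (adjusted p = 0.208), with no filter (0.0973), and without wild-type replicate 1 (0.0978), knockout replicate 1 (0.222) or knockout replicate 2 (0.0925). Of 10 tested monocyte and macrophage markers, 3 were called and all 3 were lower, and their part in the fall of Tnfrsf1a was not tested. Tnfrsf21, which encodes death receptor 6, was at 41.5 and 37.5 CPM in wild type and at 34.8 and 34.6 CPM in knockout and was not called (-0.19, 95% interval -0.34 to -0.03, edgeR adjusted p = 0.0819). It was called lower with the replicate number as a block (adjusted p = 0.0453), with upper-quartile normalization (0.0445) and without wild-type replicate 2 (0.018). The death-domain receptor genes Fas and Ngfr, whose symbols are outside the rule and which moved in opposite directions, are described with the pathway lists.

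Tnfrsf1b encodes TNF receptor 2, the TRAF-binding TNF receptor of lymphocytes. It was at 43.5 and 37.8 CPM in wild type and at 36.8 and 32.9 CPM in knockout, and was not called (-0.22, 95% interval -0.40 to -0.04, edgeR adjusted p = 0.0686). It was called lower with the block (adjusted p = 0.0136), without wild-type replicate 2 (0.00741), with the 10 CPM filter (0.0473) and with upper-quartile normalization (0.0406). Tnfrsf14 encodes HVEM, a receptor of the ligand LIGHT and of lymphotoxin alpha. It was at 28.1 and 28.4 CPM in wild type and at 25.7 and 21.5 CPM in knockout (-0.26, SE 0.09, edgeR adjusted p = 0.0477). This call was lost with DESeq2 (adjusted p = 0.242), no filter (0.207), and without wild-type replicate 2 (0.0809) or knockout replicate 2 (0.482).

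Tnfrsf26 and Tnfrsf22, neighbours in a cluster of receptor genes on chromosome 7 (143607685 to 143686436, with Tnfrsf23), moved in opposite directions. Tnfrsf26 was at 19.2 and 22.7 CPM in wild type and at 15.6 and 17.5 CPM in knockout (-0.34, SE 0.10, edgeR adjusted p = 0.0257). Tnfrsf22 was at 8.58 and 7.36 CPM in wild type and at 9.65 and 11.0 CPM in knockout (0.37, SE 0.13, edgeR adjusted p = 0.0480). The genes of this cluster are related in sequence and overlap the gene E230032D23Rik on the other strand, so the sharing of reads between them is uncertain.

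Both of these calls were lost with DESeq2 (adjusted p = 0.157 for Tnfrsf26 and 0.289 for Tnfrsf22), with no filter (0.17 and 0.156) and without wild-type replicate 2 (0.155 and 0.204). They were lost without knockout replicate 1 (0.243 and 0.0735) and without knockout replicate 2 (0.119 and 0.37) too, and that of Tnfrsf22 also with limma-voom (0.0524) and upper-quartile normalization (0.0672). Tnfrsf23 had 8 to 13 reads per library and was not tested.

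The other 5 tested receptor genes had at most 2.62 CPM in any library and none was called. Cd40, the receptor for T cell help, was at 1.31 and 1.41 CPM in wild type and at 0.72 and 1.03 CPM in knockout (-0.63, 95% interval -1.35 to 0.09, edgeR adjusted p = 0.200). Ltbr, which encodes the lymphotoxin beta receptor, the receptor of the lymphotoxin heterotrimer, had 15 reads in each wild-type library and 18 and 3 in the knockout libraries. Its sign rested on knockout replicate 2 (-0.48 with it, 0.29 without it). Tnfrsf4 (OX40, 0.02), Tnfrsf12a (the TWEAK receptor, 0.16) and Tnfrsf18 (GITR, 0.28) had wide intervals, the widest from -0.42 to 0.73.

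Of the 7 TRAF genes, all tested, 2 were called higher and none lower (median 0.02), a share of 28.6% called against 23.6% of all tested genes, and both calls were lost in alternatives. Traf3 encodes the adaptor that holds back alternative NF-kB signalling by promoting the decay of the kinase NIK. It was at 68.6 and 68.4 CPM in wild type and at 87.3 and 79.7 CPM in knockout, 1.22-fold higher (0.29, SE 0.06, edgeR adjusted p = 0.00344). Its call was lost with no filter (adjusted p = 0.062) and without knockout replicate 1 (0.125). Traf5, an adaptor of CD27, CD30 and CD40, was at 31.6 and 28.3 CPM in wild type and at 35.4 and 34.4 CPM in knockout (0.22, SE 0.08, edgeR adjusted p = 0.0491).

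The call of Traf5 was lost in 7 of 11 alternatives: DESeq2 (adjusted p = 0.256), upper-quartile normalization (0.0859), no filter (0.152), the 10 CPM filter (0.0714), and without wild-type replicate 2 (0.222), knockout replicate 1 (0.261) or knockout replicate 2 (0.237). Traf4, the most abundant TRAF gene per kb of transcript, was at 177 and 165 CPM in wild type and at 185 and 195 CPM in knockout and was not called (0.15, 95% interval 0.03 to 0.27, edgeR adjusted p = 0.0713). It was called higher with the replicate block (adjusted p = 0.0332) and without wild-type replicate 1 (0.00337). Traf6, the adaptor shared with Toll-like and IL-1 receptors, was at 74.5 and 70.1 CPM in wild type and at 65.4 and 63.6 CPM in knockout (-0.16, 95% interval -0.29 to -0.04, edgeR adjusted p = 0.0607). Traf6 was called lower with the block (adjusted p = 0.0346), without wild-type replicate 2 (0.0149), with the 10 CPM filter (0.0373) and with upper-quartile normalization (0.0287).

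Traf2, the main adaptor of TNF receptor 2 and partner of the cIAP ligases, was at 38.7 and 41.3 CPM in wild type and at 37.9 and 40.8 CPM in knockout (-0.02, 95% interval -0.18 to 0.13, edgeR adjusted p = 0.855). Traf7, a RING finger protein gene without the usual TRAF domain, was at 130 and 123 CPM in wild type and at 125 and 131 CPM in knockout (0.02, 95% interval -0.10 to 0.14, edgeR adjusted p = 0.853). Traf1, which activated lymphocytes induce through NF-kB, was low, with 0.90 and 1.36 CPM for wild type against 0.92 and 0.52 for knockout (-0.65, edgeR adjusted p = 0.271). The knockout and wild-type values overlapped for Traf1, Traf2 and Traf7, and did not for Traf3, Traf4, Traf5 and Traf6. Absence of overlap was seen for 60.5% of all tested genes. Traf5 and Traf7 overlap other annotated genes (Gstp-ps and Rab26 on the same strand), so part of their reads is uncertain.

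Set against transcript length (CPM per kb of the median protein-coding GENCODE transcript), Traf4, Tnfrsf13b, Traf7, Tnfrsf14 and Tnfrsf13c led the family in wild type, at 82.5, 66.0, 53.2, 41.0 and 39.9 CPM per kb. Ltb followed at 36.8, above Traf5 (30.7) and Lta (23.8). In knockout, Ltb and Lta stood at 10.7 and 8.41 CPM per kb and had moved from rank 6 to 9 and from rank 8 to 13 of 44. Tnfrsf13c stood at 59.2 CPM per kb and had moved from rank 5 to 3. The order depends on the lengths used: with the longest transcript of each gene, Tnfrsf13b was at 16.5 CPM per kb in wild type and ranked 7, Tnfrsf13c ranked 3 and Ltb 4.

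Levels of ligand and receptor genes are given side by side per kb. Ltb was at 36.8 and its receptor gene Ltbr at 0.36 CPM per kb in wild type, and in knockout they were at 10.7 and 0.26. For the BAFF pair the receptor gene had the higher level, with Tnfrsf13c at 39.9 and Tnfsf13b at 0.13 CPM per kb in wild type. RNA of the RANK pair was present on both sides, with Tnfsf11 at 4.70 and Tnfrsf11a at 1.33 CPM per kb in wild type. Both were called lower in knockout, but the call of Tnfsf11 was lost in several alternatives, DESeq2 (adjusted p = 0.223) and limma-voom (0.0539) among them. For TRAIL and its receptor, Tnfsf10 was at 9.04 and Tnfrsf10b at 2.94 CPM per kb in wild type, and only the receptor gene was called. Whether the changes of a ligand gene and its receptor gene differ was not tested.

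Of 61 tested genes on 5 lists of TNF receptor signalling, 5 were higher and 14 lower (8.2% and 23%, against 10.9% and 12.6% of all tested genes), with a median log2 fold change of -0.04. These counts were 2 and 6 with DESeq2, 2 and 5 with no filter, 2 and 8 without knockout replicate 1, and 1 and 6 without knockout replicate 2. Of the 25 kinases and NF-kB genes, 6 fell and 1 rose (24% and 4%, median -0.06). The 6 that fell are the IkB family genes Nfkbiz, Nfkbia and Nfkbie, the alternative-pathway subunit genes Nfkb2 and Relb, and the kinase gene Map3k8. Nfkbiz, an atypical IkB gene, was at 26.6 and 26.6 CPM in wild type and at 16.6 and 14.9 CPM in knockout (-0.75, SE 0.09, edgeR adjusted p = 1.58e-05).

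Nfkb2, which encodes the p100 precursor, was at 32.8 and 30.8 CPM in wild type against 22.8 and 20.1 CPM in knockout (-0.57, SE 0.08, edgeR adjusted p = 0.000174). Nfkbia, which encodes IkB alpha, fell by 0.37 on the log2 scale (adjusted p = 0.00131), Map3k8 by 1.07 (0.000809), Nfkbie by 0.35 (0.00447) and Relb by 0.49 (0.00809). Nfkbib was the gene that rose (0.18, adjusted p = 0.0498). The calls of Relb, Nfkbie and Nfkbib were lost with DESeq2 (adjusted p = 0.094, 0.0511 and 0.211) and with no filter (0.0685, 0.0514 and 0.152). The call of Nfkbib was lost in 7 of 11 alternatives, and those of Relb and Nfkbie in 4 of 11 each. That of Map3k8 was lost with no filter (0.0564) and without knockout replicate 2. Nfkb1 (-0.06), Rel (-0.06) and Rela (0.10) were not called (edgeR adjusted p = 0.463, 0.603 and 0.223), nor was Map3k14, the NIK gene (0.03, adjusted p = 0.869).

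In the ubiquitin machinery, 4 of 13 genes fell and 1 rose (30.8% and 7.69%, against 12.6% and 10.9% of all tested genes, median -0.04). Tnfaip3, which encodes A20, the deubiquitinase that ends NF-kB signalling, was at 40.7 and 36.4 CPM in wild type and at 21.2 and 20.6 CPM in knockout (-0.88, SE 0.08, edgeR adjusted p = 1.64e-06). Birc3, a cIAP ligase gene, fell by 0.30 on the log2 scale (adjusted p = 0.00802), Cyld by 0.25 (0.0149) and Xiap by 0.25 (0.0227), and Otulin rose by 0.24 (0.0152). The calls of Birc3, Cyld, Xiap and Otulin were lost with DESeq2 and with no filter. Of 14 receptor-proximal adaptors and death signalling genes, 2 fell and none rose (median -0.09), a share of 14.3% lower against 12.6% of all tested genes: Tifa (-0.61, edgeR adjusted p = 1.54e-06) and the stress kinase gene Map3k5 (-0.25, adjusted p = 0.0131). Tradd, Ripk1, Fadd, Casp8 and Cflar, which encode the core of the death-domain complex, were not called, with log2 fold changes from -0.14 to 0.24.

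Of 4 tested sheddases and proteases, only Rhbdf2, which escorts the TNF convertase, was called (0.23, edgeR adjusted p = 0.0278). This is a share of 25% called, against 23.6% of all tested genes. Adam17, the convertase gene itself, was at 60.5, 59.5, 60.6 and 59.1 CPM (-0.0036, edgeR adjusted p = 0.973). Of 5 tested family genes that the symbol rule leaves out, 2 rose and 2 fell (40% each, against 10.9% and 12.6% of all tested genes). Fas, the death receptor gene, fell from 1.05 and 1.21 CPM to 0.15 and 0.41 CPM (-1.98, SE 0.47, edgeR adjusted p = 0.00721), and Eda2r, also known as a p53 target, fell from 1.96 and 1.11 to 0.51 and 0.36 CPM (-1.80, SE 0.42, adjusted p = 0.00637). Ngfr, the low-affinity neurotrophin receptor gene, rose from 0.40 and 0.15 CPM to 2.05 and 1.6 CPM (2.70, SE 0.43, adjusted p = 0.000378), with 8 and 3 reads in wild type and 40 and 31 in knockout. Relt rose from 55.5 and 56.1 to 70.5 and 75.8 CPM (0.39, SE 0.06, adjusted p = 0.000315). Fas had 21 and 24 reads in wild type and 3 and 8 in knockout, and Eda2r 39 and 22 against 10 and 7. Fas, Eda2r and Ngfr passed the filter only through the genotype in which they were higher, so their calls are no independent support for a change.

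Of these 19 pathway calls, 6 were kept in each alternative that gave a value: Ngfr, with the limit just given, and Tifa, Tnfaip3, Nfkb2, Nfkbia and Nfkbiz. The others were lost in at least 1. DESeq2 and no filter ended the calls of Fas (adjusted p = 0.0773 and 0.0839) and Eda2r (0.0503 and 0.0904). They also ended those of Map3k5 (0.103 and 0.0563) and Rhbdf2 (0.163 and 0.106). The call of Fas was also lost without knockout replicate 1, and that of Relt only without knockout replicate 2. The neutrophil, monocyte and NK cell sums were lower in the same libraries, and their part in these falls was not tested.

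**Figure D4:**
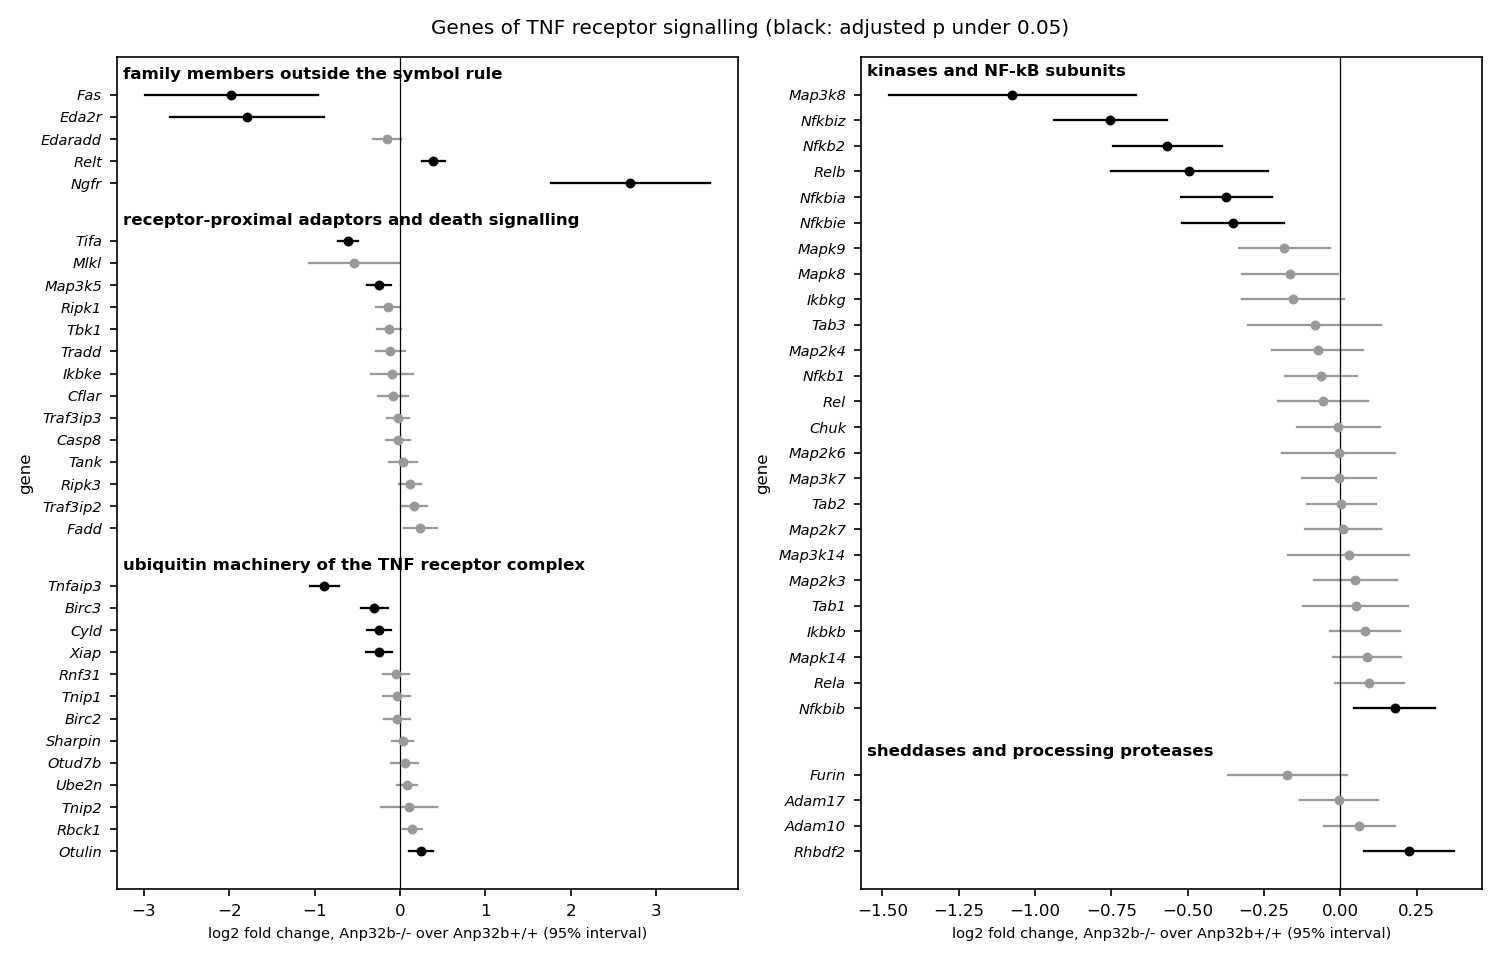
Log2 fold change (x axis, knockout over wild type) with its 95% interval for the 61 tested genes of 5 lists around TNF receptor signalling (y axis). Black marks an edgeR adjusted p under 0.05. Among kinases and NF-kB genes, the 6 lower calls run from -1.07 for Map3k8 to -0.35 for Nfkbie, while Nfkb1, Rel and Rela lie near 0.

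The 12 member genes below the filter had at most 18 reads in a library. They are Cd27, Tnfrsf8, Tnfrsf9, Tnfrsf17, Tnfrsf23 and Tnfrsf25 among the receptors, and Tnfsf13, Tnfsf13b, Tnfsf14, Tnfsf15, Tnfsf18 and Tnfsfm13 among the ligands. Of these, 7 had at most 3 reads in each library, the limit that a count of 0 allows (0.151 to 0.155 CPM). For these 7, differences were not detectable at this depth. Tnfsfm13 is a readthrough of Tnfsf12 and Tnfsf13, so reads of the 3 genes cannot be kept apart with certainty. Cd27, a receptor of activated lymphocytes that also marks some progenitors, had 12 and 6 reads in wild type and 4 and 7 in knockout. Of the 32 tested genes, Ltbr and Tnfsf12 had a library with fewer than 10 reads.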

How the data were processed

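RNA was extracted from GFP+ bone marrow cells with Trizol and sequenced after a standard library preparation, per the labels' protocols. The authors deposited 1 table of estimated counts per library, unscaled and listed per gene symbol. Per the submitters' processing notes, the tools were HISAT2 2.0.4 and DESeq2 1.4.5 and the build GRCm38. Counting tool, annotation and strand setting: not given in the sources used here. Values were whole numbers in 64.5% to 65.6% of rows, and were rounded before testing.

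Libraries were grouped by the genotype label. The whole table was fitted with edgeR 4.0.16 (R 4.3.3): TMM normalization, filterByExpr with a minimum count of 10, quasi-likelihood test, no covariate, and Benjamini-Hochberg adjustment over 12123 genes. SE is the log2 fold change divided by the square root of F. With 2 libraries on each side, the smallest p of an exact permutation test is 0.333, so none was run. Alternatives were DESeq2 1.42.0, voom from limma 3.58.1, a block on the label's replicate number, RLE and upper-quartile normalization, no filter, a filter of 10 CPM in 2 libraries, and leaving out each library. On simulated counts of 11971 genes for this comparison, drawn with genes of at least 5 CPM changed, the fit recovered 68% of the 1.25-fold changes, 96% of the 1.5-fold changes and 100% of those of 2-fold and of 4-fold, with 6.19% of calls false.

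All member genes are accounted for. Library values are given for called members and those of at least 5 CPM, and pathway genes were named by call, at most the 5 with the smallest p per list. Relb, Nfkbib and the uncalled pathway and neighbouring genes were named after their values were seen. Members and lists were chosen with earlier results of these data known. Coordinates and promoters are from RefSeq (GRCm38.p6), in which all 44 symbols matched, and transcript lengths from GENCODE M21. No library was a copy of another: chi-square over its degrees of freedom was 5.51 for the wild-type pair and 2.11 for the knockout pair.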

Additional observations from a re-analysis of the deposited data

How the results depend on the processing

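Calls higher and lower in knockout were 5 and 11 for the TNF family, 1323 and 1533 for all genes, and 5 and 14 for the pathway lists. With DESeq2 these were 3 and 6, 729 and 847, and 2 and 6. Without the low-count filter the numbers became 2 and 7, 547 and 744, and 2 and 5. With a filter of 10 CPM in 2 libraries, which tests 16 family genes, they were 3 and 7 for the family, and 3 pathway genes were higher. With upper-quartile normalization, which shifts the median of all genes to -0.028, 3 family genes and 3 pathway genes were higher. Leaving out 1 library gave 2 to 6 higher and 7 to 12 lower family genes, 372 to 1676 higher and 579 to 1712 lower among all genes, and 1 to 7 higher and 6 to 14 lower pathway genes. The low ends came without a knockout library, where the spread comes from the wild-type pair. Causes were otherwise not tested.

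The replicate block gave 6 higher and 14 lower family genes, and 1644 and 1779 among all genes. The labels do not say what the numbers share, and the deviations of same-numbered libraries correlated at 0.0476 over 12123 genes. The block ended no call among the family genes.

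Uncalled genes changed sign as follows: Tnfrsf4 (-0.0119) and Traf7 (-0.012) with upper-quartile normalization, Traf7 with the filter of 10 CPM (-0.000858), and, over the leave-outs, Ltbr (-2.24 to 0.29), Tnfrsf12a (-0.0147 to 0.317), Tnfsf9 (-0.807 to 0.0806), Tnfrsf4 (-0.0848 to 0.126), Traf2 (-0.0768 to 0.0321) and Traf7 (-0.0222 to 0.0564). Of 336 values of tested family genes, 272 kept direction and call.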
